A study of Mus musculus with 18 samples.

Results

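The 10 genes described here belong to the MHC class II presentation pathway of the mouse: H2-Aa, H2-Ab1, H2-Eb1, Cd74, H2-DMa, H2-DMb1, H2-DMb2, H2-Oa, Ciita and Ctss. They were chosen by symbol, and each symbol named exactly 1 row in each of the 10 mRNA matrices, so that the members were 10 of 32285 genes. In the mm10 annotation 7 of them lie within the MHC on chromosome 17: H2-Oa (chr17:34092340-34095234, plus strand), H2-DMa (chr17:34119541-34139101, plus), H2-DMb2 (chr17:34143307-34151555, plus), H2-DMb1 (chr17:34153072-34160230, plus), H2-Ab1 (chr17:34257689-34269419, plus), H2-Aa (chr17:34282744-34287823, minus) and H2-Eb1 (chr17:34305867-34316674, plus). Ciita lies at chr16:10480059-10528418 and Ctss at chr3:95526786-95556403, both on the plus strand.

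MHC class II molecules show peptides from engulfed proteins to CD4 T cells, and in skin they are best known on dendritic cells, Langerhans cells and some macrophages. H2-Aa and H2-Ab1 encode the alpha and beta chains of I-A, and H2-Eb1 encodes the beta chain of I-E. Cd74, the invariant chain, guards the groove until Ctss (cathepsin S) trims it away. H2-DM, built from H2-DMa with a beta chain from H2-DMb1 or H2-DMb2, then exchanges the remaining fragment for peptide, H2-Oa encodes a chain of the H2-DM modulator H2-O, and Ciita is the transactivator that the promoters of most of these genes depend on.

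The study profiled single cells from mouse back skin after surgery. All animals had surgery: the back was cut close to the tail, and forceps opened a subcutaneous path up to the neck. A hydrogel expander was then placed and held by stitches in expanded animals only, and controls were given no expander. Skin was collected on day 1, 2 or 4, digested and sorted for live DAPI-negative cells, and 5 control and 5 expanded libraries were made with the 10x Chromium 3′ kit: replicate 1 (day 1, sequencing round 1), replicate 2 (day 1, round 2), replicate 3 (day 2, round 1), replicate 4 (day 2, round 2) and replicate 5 (day 4, round 1). All control mice of a round were pooled in 1 tube and all expanded mice in another, so within a round the reaction and the arm cannot be told apart. The labels name no strain, sex, age or litter, and no skin without surgery was included. Replicates 2 to 5 carried hashtags for 3, 3, 4 and 4 mice per arm, which gave 14 control and 14 expanded mice.

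Libraries held 17726739 to 75470722 gene UMIs (unique molecular identifiers, 1 per captured RNA molecule). After filtering, 45488 cells remained, of which 39825 fell into 16 classes named from marker genes. The dendritic-like class held 3206 cells in 2 clusters and the macrophage or monocyte-like class 5307 cells in 2 clusters, and the class II genes were left out of the clustering. The leading genes of the clusters were markers of these types: cluster 3 was led by Mgl2 and Cd209a, cluster 20 by Ccl22, Ccr7 and Xcr1, cluster 5 by C1qa and Folr2, and cluster 1 by Chil3 and Ly6c2. No cluster took the Langerhans name, and Cd207 and Ltc4s were among the leading genes of cluster 20. Levels are counts per 1e6 UMIs (CPM) of the summed cells of a class in a library. Adjusted p-values are from edgeR's quasi-likelihood test with Benjamini-Hochberg adjustment over all genes tested, and a gene is said to rise or fall where that p is under 0.05. Whether libraries came from separate mice is labelled for the hashtagged ones only, so the p-values measure the spread between these libraries. Since the assay counts 1 tag at the 3′ end of a molecule, CPM is not divided by gene length.

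The class II genes were concentrated in the dendritic-like class. The summed CPM of H2-Aa, H2-Ab1, H2-Eb1 and Cd74, called the 4-gene sum below, had a median of 60364 over the 10 libraries in dendritic-like cells, with a range of 42837 to 76372. Macrophage or monocyte-like cells followed with a median of 9796 and a range of 1429 to 29547, and no macrophage library reached the lowest dendritic library. The next medians were 456 CPM in NK or innate lymphoid-like cells, 414 CPM in neutrophil-like cells and 363 CPM in T cell-like cells, whose ranges overlapped. Fibroblast-like cells had the lowest median, 60.8 CPM, with a range of 10.9 to 516.

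**Figure D1:**
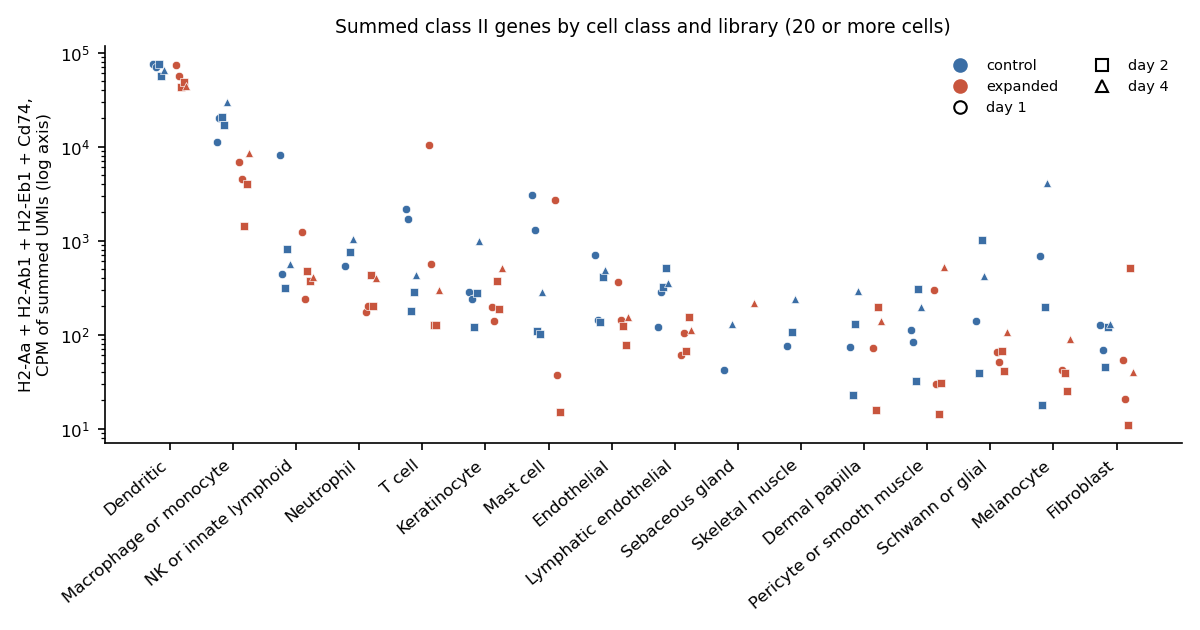
Summed CPM of H2-Aa, H2-Ab1, H2-Eb1 and Cd74 on a log axis for each of the 16 cell classes, with each point a library that had at least 20 cells of the class (blue control, red expanded; circles day 1, squares day 2, triangles day 4). Dendritic-like libraries lie between 42837 and 76372 CPM, macrophage or monocyte-like libraries between 1429 and 29547 CPM, and single libraries of other classes reach up to 10477 CPM.

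Not every member followed the 4-gene sum from class to class. In dendritic-like cells the median was 31565 CPM for Cd74, 12198 CPM for H2-Aa, 12810 CPM for H2-Ab1 and 5144 CPM for H2-Eb1. The DM chains stood at 1001 CPM for H2-DMa, 767 CPM for H2-DMb1 and 193 CPM for H2-DMb2, Ciita at 80.3 CPM and H2-Oa at 17.2 CPM. Dendritic-like cells had the highest class median for each member except Ctss. The median of Ctss was 1531 CPM in macrophage or monocyte-like cells (range 882 to 2354 CPM) and 1427 CPM in dendritic-like cells (range 1082 to 1872 CPM), and these ranges overlapped. H2-Oa had 688 UMIs in all dendritic-like cells against 19 UMIs in all macrophage or monocyte-like cells. Over the 16 class means on the log2(CPM + 1) scale, each member's Pearson r with the mean of the 4 genes was between 0.991 for Cd74 and 0.729 for H2-Oa. This is a description, since the classes share libraries and the 4 genes are part of the mean they were compared with. The 5 other genes most like that mean among 12094 were Clec4b1 (r = 0.971), Adgre4 (r = 0.968), Cd209e (r = 0.967), Kmo (r = 0.965) and Mgl2 (r = 0.961).

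The X and Y boxes are short promoter elements known from class II genes, and the stretches that hold their letters are shown to let a reader see them in members whose levels are compared here. RefSeq windows on GRCm38.p6, from 250 bases before to 50 bases after the start, were used for 7 members, and those of H2-Ab1, Cd74 and Ciita were not analysed here. The letters TGATTGG, known as the Y box, were searched on both strands and occurred in 5 of the 7 members (H2-Aa, H2-Eb1, H2-DMb1, H2-DMb2 and H2-Oa) and in 7.82% of all 32851 windows. The letters AACNGATG of the X box, which do not overlap the Y letters, occurred in 4 members (H2-Eb1, H2-DMb1, H2-DMb2 and Ctss) and in 2.32% of windows. H2-Eb1, H2-DMb1 and H2-DMb2 held both, and 61 windows (0.186%) did. The X and Y letters lay 20 bases apart in H2-Eb1 and 21 bases apart in H2-DMb1 and H2-DMb2. In the stretches below, which overlap no annotated exon, capitals mark the X and Y letters, H2-Eb1 and H2-DMb2 lie on the plus strand and H2-Aa on the minus strand.
H2-Eb1 (chr17:34305761-34305820): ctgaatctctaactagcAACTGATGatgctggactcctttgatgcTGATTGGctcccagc
H2-DMb2 (chr17:34145112-34145171): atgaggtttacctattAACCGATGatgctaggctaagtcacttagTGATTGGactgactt
H2-Aa (chr17:34287859-34287918): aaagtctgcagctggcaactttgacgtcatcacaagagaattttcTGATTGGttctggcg
The H2-Aa stretch held the Y letters and not these X letters, and neither set occurred in the H2-DMa windows.

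In macrophage or monocyte-like cells the class II genes were several-fold lower in expanded skin. Of the 9 members tested, 7 fell and 0 rose, against 21.6% of 11190 genes that changed and 12.3% that fell. Cd74 stood at 5154, 9721, 11459, 9306 and 15106 CPM in control replicates 1 to 5 and at 3499, 2382, 906, 2134 and 4519 CPM in expanded replicates 1 to 5. Every expanded library was below every control library, which was also so for H2-Aa, H2-Ab1 and H2-Eb1 and for 4.39% of all genes. Cd74 fell by 2.12 on the log2 scale (SE 0.33, adjusted p = 0.0032), a 4.35-fold difference.

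The chains of the presenting molecules moved like the invariant chain. H2-Aa was at 2370, 4046, 4692, 3407 and 6066 CPM in control libraries and at 1252, 925, 228, 876 and 1809 CPM in expanded libraries. H2-Ab1 was at 1741, 3267, 3381, 2941 and 5716 CPM in control libraries and at 1218, 879, 238, 675 and 1593 CPM in expanded libraries. In both genes the lowest level was that of expanded replicate 3 and the highest that of control replicate 5. H2-Aa fell by 2.25 (SE 0.39, adjusted p = 0.0041) and H2-Ab1 fell by 2.11 (SE 0.36, adjusted p = 0.0040) on the log2 scale. H2-Eb1 was at 1861, 2883, 1048, 1253 and 2660 CPM in control libraries and at 895, 387, 56.5, 354 and 546 CPM in expanded libraries, and it fell by 2.34 (SE 0.42, adjusted p = 0.0051).

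The peptide exchanger and the transactivator also fell, and the protease did not pass the test. H2-DMa ranged from 172 to 550 CPM in control and from 71.8 to 264 CPM in expanded libraries, and it fell by 1.32 (SE 0.28, adjusted p = 0.0097). H2-DMb1 ranged from 121 to 357 CPM in control and from 57.6 to 204 CPM in expanded libraries, and it fell by 1.15 (SE 0.27, adjusted p = 0.014). These ranges overlapped, while the expanded library was lower in 5 of 5 pairs of the same day and round for both genes. Ciita was at 6.71, 19.4, 14.6, 29.8 and 29.9 CPM in control libraries and at 7.70, 5.95, 2.98, 12.9 and 10.8 CPM in expanded libraries. It was lower in 4 of 5 pairs, with control replicate 1 inside the expanded range, and it fell by 1.46 (SE 0.43, adjusted p = 0.034). The Ciita call was lost without control replicate 2, 4 or 5 or expanded replicate 2 or 5. The other 6 calls held without any single library.

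H2-DMb2 had a log2 difference of -1.003 (SE 0.37, adjusted p = 0.073) and was called only with the day and round as a replicate block (-0.96, adjusted p = 0.0068). Part of H2-DMb1 and H2-DMb2 is the same sequence: 20.4% of the 50-base windows in the last 500 bases of the H2-DMb1 transcript occurred in H2-DMb2, and 0 of 451 the other way. Counts of the H2-DM beta chains are therefore uncertain where the reads were split or dropped. Ctss was at 1426, 1418, 1522, 1541 and 2202 CPM in control libraries and at 2068, 882, 1277, 1646 and 2354 CPM in expanded libraries. These levels overlapped fully, and the log2 difference was -0.11 (SE 0.19, 2 SE either side -0.50 to 0.27, adjusted p = 0.70). H2-Oa had too few UMIs to be tested, and it was at 0 UMIs in 3 libraries.

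**Figure D2:**
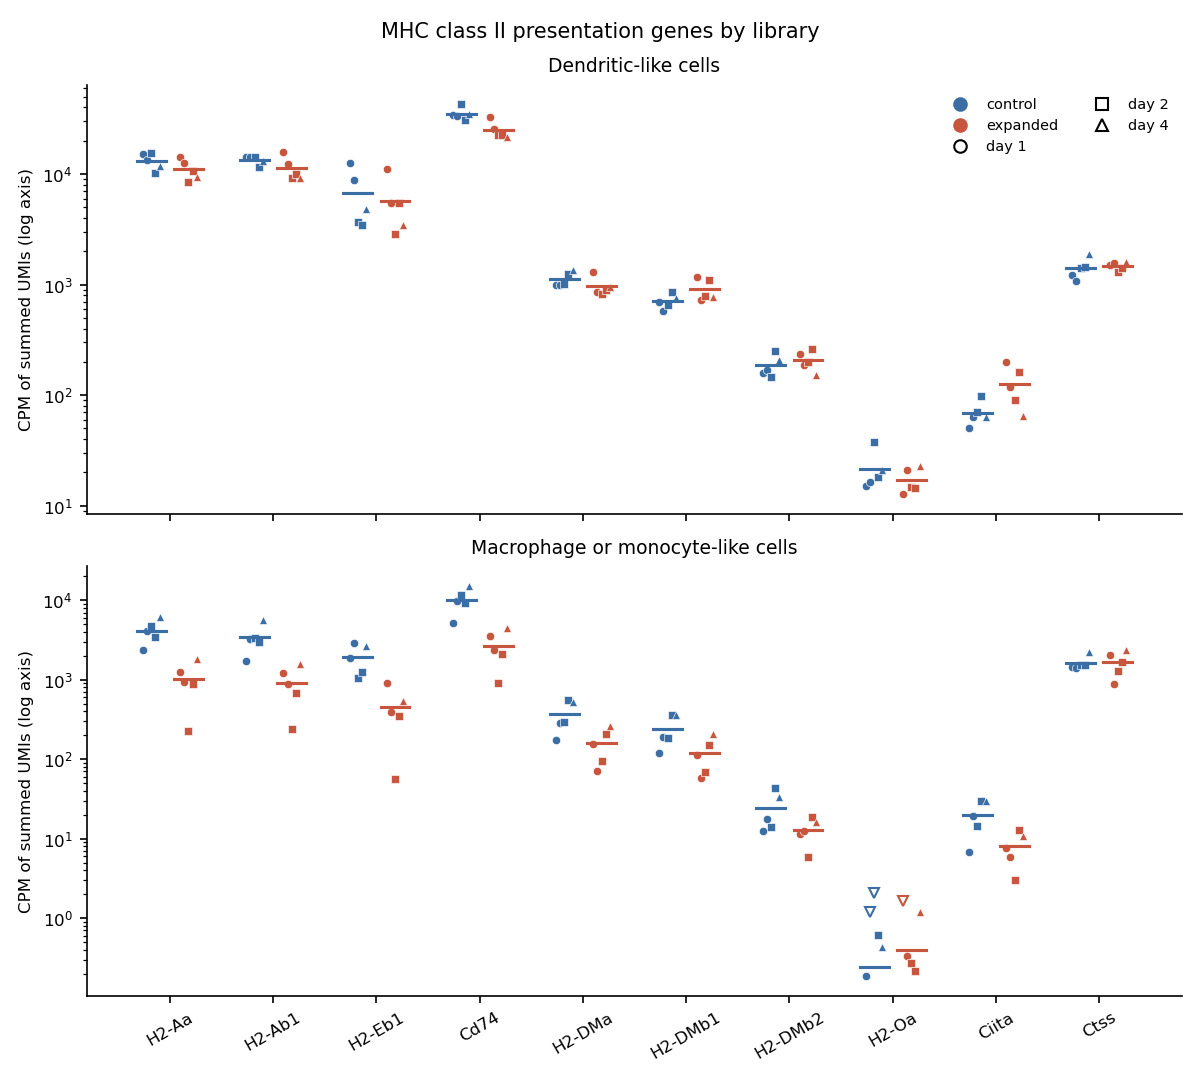
Levels of the members in dendritic-like and macrophage or monocyte-like cells of each library, in CPM on a log axis (blue control, red expanded; circles day 1, squares day 2, triangles day 4; short lines the arm means; open downward triangles the floor of 3 counts for a library with 0 UMIs). In macrophage or monocyte-like cells the expanded libraries of Cd74, H2-Aa, H2-Ab1 and H2-Eb1 lie below all control libraries, while those of Ctss span the control range.

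The makeup of the macrophage or monocyte-like class differed between the arms, and its values stand beside these results. Cluster 5, with the C1q genes and Folr2, held 94.3, 93.6, 93.6, 40.8 and 79.1% of the class in control libraries and 54.7, 14.5, 0.917, 3.61 and 7.04% in expanded libraries. All other cells of the class were in cluster 1, with Chil3 and Ly6c2. The summed level of the 10 type 2 dendritic markers was 912 to 1811 CPM in control and 174 to 1159 CPM in expanded libraries of the class, with 0 markers at 0 in either arm. The 10 neutrophil markers summed to 229 to 566 CPM in control and 1040 to 2616 CPM in expanded libraries, and the 12 fibroblast markers to 423 to 5367 and 68.3 to 613 CPM. The part of these markers in the class II difference was not tested.

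The class II genes were also lower within cluster 1 alone. Control replicate 3 had 17 cells there and was left out, which gave 4 control against 5 expanded libraries. Cd74 was at 6108, 9408, 9041 and 17937 CPM in control replicates 1, 2, 4 and 5 and at 2353, 1732, 875, 2110 and 4020 CPM in expanded replicates 1 to 5. All expanded libraries were below all controls for Cd74, H2-Aa, H2-Ab1, H2-Eb1, H2-DMa and H2-DMb1, which was so for 1.98% of genes in this cluster. Of 9 members 7 fell, against 1.18% of 9841 genes that changed and 0.732% that fell. Cd74 fell by 2.27 (SE 0.25, adjusted p = 0.0036), H2-Aa by 2.36 (SE 0.32, adjusted p = 0.0055) and Ciita by 2.22 (SE 0.47, adjusted p = 0.047) on the log2 scale. H2-DMb2 was at -1.69 (adjusted p = 0.056; -1.34 and adjusted p = 0.014 with the replicate block) and Ctss at -0.20 (adjusted p = 0.76). The number of members called was 1 without control replicate 4, 3 without control replicate 5 or expanded replicate 5 and 4 without control replicate 1 or 2. A finer clustering gave subsets of unlike class II level, and how they divide cluster 1 was not tested. In subset 31 the 4-gene sum was 26667 and 46476 CPM in 2 control libraries (202 and 129 cells). It was 23471 to 30257 CPM in 4 expanded libraries (21 to 65 cells). In subset 5 it was 12059 and 19777 CPM in 2 control libraries (152 and 32 cells). There it was 708 to 5129 CPM in 5 expanded libraries (28 to 716 cells).

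Cluster 5 had 10 and 11 cells in expanded replicates 3 and 4, and it could be fitted in all libraries only with a minimum of 10 cells, an alternative added after seeing the data. Cd74 was at 5095, 9750, 11753, 9758 and 14263 CPM in control libraries and at 4655, 7435, 4713, 2969 and 11491 CPM in expanded libraries. The arms overlapped, and each expanded library was below its control partner. In that fit 5 of 9 members fell, against 14.8% of 8478 genes that changed and 10.0% that fell. These were Cd74 (-1.01, adjusted p = 0.026), H2-Aa (-1.14, adjusted p = 0.021), H2-Ab1 (-0.96, adjusted p = 0.027), H2-Eb1 (-1.76, adjusted p = 0.0038) and H2-DMb1 (-0.70, adjusted p = 0.047).

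In dendritic-like cells the called differences were smaller. Of 10 members 4 fell and 0 rose, against 19.7% of 10216 genes that changed and 11.0% that fell. Cd74 was at 34258, 33689, 42953, 30606 and 34700 CPM in control libraries and at 32524, 25706, 22383, 22480 and 21673 CPM in expanded libraries. Each expanded library was below its control partner, and expanded replicate 1 lay inside the control range. Cd74 fell by 0.76 (SE 0.14, adjusted p = 0.0057), a 1.69-fold difference, and kept its call without any single library.

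H2-Ab1 was at 14143, 14321, 14375, 11526 and 13228 CPM in control libraries and at 15787, 12393, 9165, 9918 and 9246 CPM in expanded libraries. Expanded replicate 1 was the highest of all 10, and the other 4 expanded libraries were below their partners. H2-Ab1 fell by 0.53 (SE 0.13, adjusted p = 0.018), H2-Aa fell by 0.53 (SE 0.15, adjusted p = 0.031) and H2-DMa fell by 0.45 (SE 0.14, adjusted p = 0.046). The H2-Ab1 call was lost without control replicate 5 or expanded replicate 3 or 5. The H2-Aa call was lost without control replicate 1, 3 or 5 or any of expanded replicates 2 to 5, and that of H2-DMa without any library but expanded replicate 1. No member's arms were separate in this class, where 2.14% of genes had every expanded library below and 11.0% every expanded library above all controls.

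Scaling mattered in dendritic-like cells. Dividing by total UMIs in place of TMM factors, an alternative added after seeing the data, moved the median log2 difference of all genes from 0.03 to 0.26 and the share of higher genes among those called from 44.2% to 78.0%. Cd74 then still fell, by 0.51, and Ciita was higher by 0.83 and past the threshold. H2-Aa (-0.28, adjusted p = 0.12), H2-Ab1 (-0.28, adjusted p = 0.084) and H2-DMa (-0.22, adjusted p = 0.29) were not called, and H2-DMb2 and Ctss changed sign to 0.14 and 0.09. In macrophage or monocyte-like cells the same step moved the median of all genes from 0.01 to 0.11 and the share of higher genes from 43.1% to 56.1%. There 7 of 9 members still fell, and Ctss moved from -0.11 to 0.01.

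Ciita, the DM beta chains, H2-Oa and Ctss did not pass the test in dendritic-like cells. Ciita was at 50.9, 63.6, 70.3, 99.3 and 63.2 CPM in control libraries and at 199, 120, 90.2, 163 and 65.0 CPM in expanded libraries. Its CPM was higher in the expanded library of 5 of 5 pairs, with overlapping arms and a log2 difference of 0.60 (SE 0.25, adjusted p = 0.11). The sign of the day 4 pair depended on the scaling: with TMM factors its log2 difference was -0.17. The share of dendritic-like cells with a Ciita UMI, each cell thinned to 2000 UMIs, was 9.45, 12.7, 10.1, 18.9 and 11.4% in control libraries and 32.4, 18.5, 14.5, 28.6 and 11.2% in expanded libraries. The CPM of H2-DMb1 was also higher in 5 of 5 pairs (573 to 865 CPM in control, 730 to 1173 CPM in expanded libraries; 0.13, SE 0.16, adjusted p = 0.61), and its day 4 difference with TMM factors was -0.20. H2-DMb2 had a log2 difference of -0.09 (SE 0.17, adjusted p = 0.74), H2-Oa of -0.51 (SE 0.27, adjusted p = 0.20) and Ctss of -0.15 (SE 0.12, adjusted p = 0.41).

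Cluster 20 made up 13.9 to 20.7% of the dendritic-like class in control and 34.5 to 50.3% in expanded libraries, so the 2 clusters were also compared alone. In cluster 3, led by type 2 dendritic genes, 2 of 10 members fell and 1 rose, against 17.9% of 8956 genes that changed, 9.99% that fell and 7.94% that rose. Cd74 (-0.70, SE 0.17, adjusted p = 0.016) and H2-Ab1 (-0.45, SE 0.15, adjusted p = 0.048) fell, and with the replicate block H2-Ab1 was not called. Ciita was at 43.9, 55.4, 53.4, 91.9 and 60.1 CPM in control libraries and at 179, 122, 98.9, 141 and 77.9 CPM in expanded libraries. Only expanded replicate 5 was below the highest control library, and Ciita rose by 0.79 (SE 0.22, adjusted p = 0.029). H2-DMb1 was at 706, 562, 636, 904 and 780 CPM in control libraries and at 1271, 932, 1024, 1324 and 1094 CPM in expanded libraries. All expanded libraries were above all controls, as for 9.17% of genes, and the log2 difference of 0.45 (SE 0.15) had an adjusted p of 0.050, or 0.018 with the replicate block. The block also called H2-Oa (-1.01, adjusted p = 0.043). The count of called members was 0 without expanded replicate 4, 1 without control replicate 1, 2 or 3 and 6 without control replicate 4.

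In cluster 20, which holds migratory and type 1 dendritic genes, 0 of 10 members passed the edgeR test, against 4.27% of 8132 genes. At an unadjusted p under 0.05 the test called 6 members (Cd74, H2-Aa, H2-Ab1, H2-Eb1 and H2-DMa lower, Ctss higher), DESeq2 called 2, and without expanded replicate 1 the edgeR test called 6. The 4.27% does not apply to these settings, and no share of all genes is given for them. Cd74 had a log2 difference of -0.66 (SE 0.18, adjusted p = 0.061). Ctss was at 561, 546, 624, 848 and 862 CPM in control libraries and at 1111, 1118, 1149, 1168 and 1075 CPM in expanded libraries. Every expanded library was above every control, as for 5.95% of genes, and the log2 difference was 0.49 (SE 0.15, adjusted p = 0.090). When divided by total UMIs it was 0.73 and called. Ctss and the presenting chains thus had estimates of opposite sign in cluster 20 as a whole, and none of them passed the test. In the type 1 dendritic-like cells of a finer clustering the 4-gene sum was not lower on average. Its mean was 61257 CPM in 5 control and 63450 CPM in 3 expanded libraries.

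The arm difference was larger in macrophage or monocyte-like than in dendritic-like cells for 6 of 10 members, by a test of the difference itself with libraries as blocks. That test called 13.0% of 11657 genes, and 6.07% in this direction. The difference of the differences was -2.09 for H2-Eb1 (SE 0.47, adjusted p = 0.013), -1.96 for Ciita (SE 0.44, adjusted p = 0.012) and -1.81 for H2-Aa (SE 0.43, adjusted p = 0.017) on the log2 scale. It was -1.61 for H2-Ab1 (SE 0.43, adjusted p = 0.027), -1.38 for Cd74 (SE 0.37, adjusted p = 0.029) and -1.26 for H2-DMb1 (SE 0.34, adjusted p = 0.029). H2-DMa (-0.86, adjusted p = 0.11), H2-DMb2 (-0.87, adjusted p = 0.10) and Ctss (0.01, adjusted p = 0.99) did not pass. The number called was 3 without control replicate 2, 3 or 5 or expanded replicate 3, and the Cd74 call was lost in 6 of the 10 fits that left out 1 library, while those of H2-Aa, H2-Eb1 and Ciita held in all 10.

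**Figure D3:**
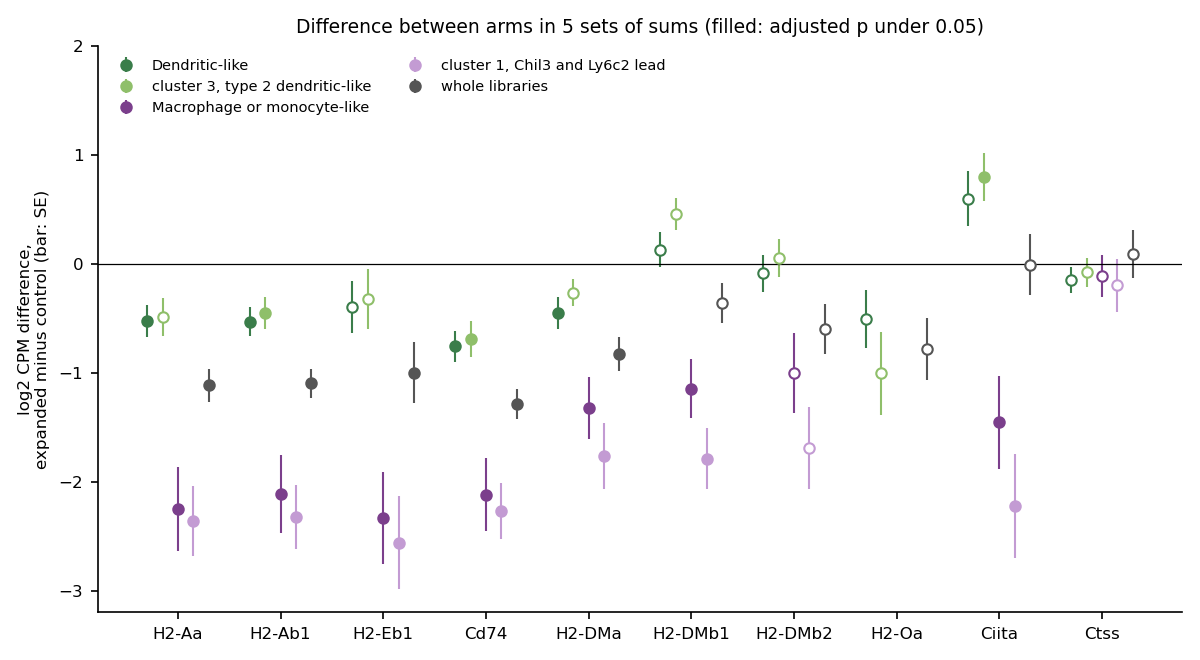
Log2 difference of expanded minus control for each member in dendritic-like cells, cluster 3, macrophage or monocyte-like cells, cluster 1 and whole libraries, with bars for the SE and filled points for an adjusted p under 0.05. The members of macrophage or monocyte-like cells other than Ctss lie between -1.003 and -2.34, while in dendritic-like cells the range is -0.76 for Cd74 to 0.60 for Ciita.

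With mice in place of libraries, separated by their hashtags, the direction was the same. The dendritic-like class had at least 20 cells in 14 control and 10 expanded mice, and 4 of 10 members fell, against 37.0% of 7919 genes that changed and 18.5% that fell. Cd74 fell by 0.84 (adjusted p = 1.467e-05), from 28881, 33516 and 44797 CPM (lowest, median and highest control mouse) to 11502, 23411 and 31437 CPM in expanded mice. H2-Aa, H2-Ab1 and H2-DMa were the others. In the macrophage or monocyte-like class of 13 control and 12 expanded mice, 8 of 9 members fell, against 46.0% of 8914 genes that changed and 22.4% that fell. Cd74 fell by 2.31 (adjusted p = 1.322e-07), from 8108, 10907 and 17834 CPM in control mice to 533, 2041 and 11239 CPM in expanded mice, and Ctss was at -0.20 (adjusted p = 0.058). Mice of both arms overlapped in both classes.

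The mouse fits of single clusters gave the same picture for Ciita. In cluster 3 (14 control and 8 expanded mice) 3 of 10 members fell (Cd74, H2-Ab1 and H2-DMa) and 2 rose, against 33.6% of 6927 genes that changed, 17.0% that fell and 16.6% that rose. The 2 were Ciita (0.54, SE 0.17, adjusted p = 0.015) and H2-DMb1 (0.44, SE 0.10, adjusted p = 0.0012). In cluster 1 (8 control and 12 expanded mice) 7 of 9 members fell, against 11.4% of genes that changed and 5.41% that fell, and H2-Eb1 (-1.84, SE 0.80, adjusted p = 0.14) and Ctss were not among them. Mice of an arm and round shared a reaction, so these p-values do not take up differences between reactions.

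No member's arm difference changed with the day beyond the test. The test of the day by arm term called 0 of 10 members in dendritic-like cells and 0 of 9 in macrophage or monocyte-like cells, and 0% of 10948 and of 11955 genes. At an unadjusted p under 0.05 it called 0 members in both classes, with 456 and 181 genes. For Cd74 the log2 difference was -1.51, -2.84 and -1.89 on days 1, 2 and 4 in macrophage or monocyte-like cells and -0.51, -0.94 and -0.90 in dendritic-like cells. For Ciita in dendritic-like cells it was 1.19, 0.37 and -0.17. Day 4 had 1 library per arm, so its spread was borrowed from the other days.

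The lower level in macrophage or monocyte-like cells came with fewer positive cells. With each cell thinned to 2000 UMIs, the share with at least 1 UMI of the 4 genes was 81.9, 95.9, 88.2, 92.0 and 95.8% in control libraries and 67.2, 42.3, 32.0, 44.0 and 67.8% in expanded libraries. The arms did not overlap, and the mean was 40.1 percentage points lower in expanded libraries (90.8 ± 5.89% against 50.7 ± 16.0%, SD, n = 5 each; exact permutation p = 0.0079, two-sided, the smallest that 252 arrangements allow, and 0.026 adjusted over 10 classes). The adjusted p was 0.060 to 0.079 with any 1 expanded library left out and 0.079 without thinning. Before thinning, the median UMIs per cell of the class were 4229 to 7977.5 in control and 7176 to 15049 in expanded libraries, and the unthinned shares were 91.7 to 98.6% and 61.6 to 83.9%. The median thinned cell held 6, 25, 34, 24 and 60 UMIs of the 4 genes in control libraries and 4, 0, 0, 0 and 2 in expanded libraries.

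**Figure D4:**
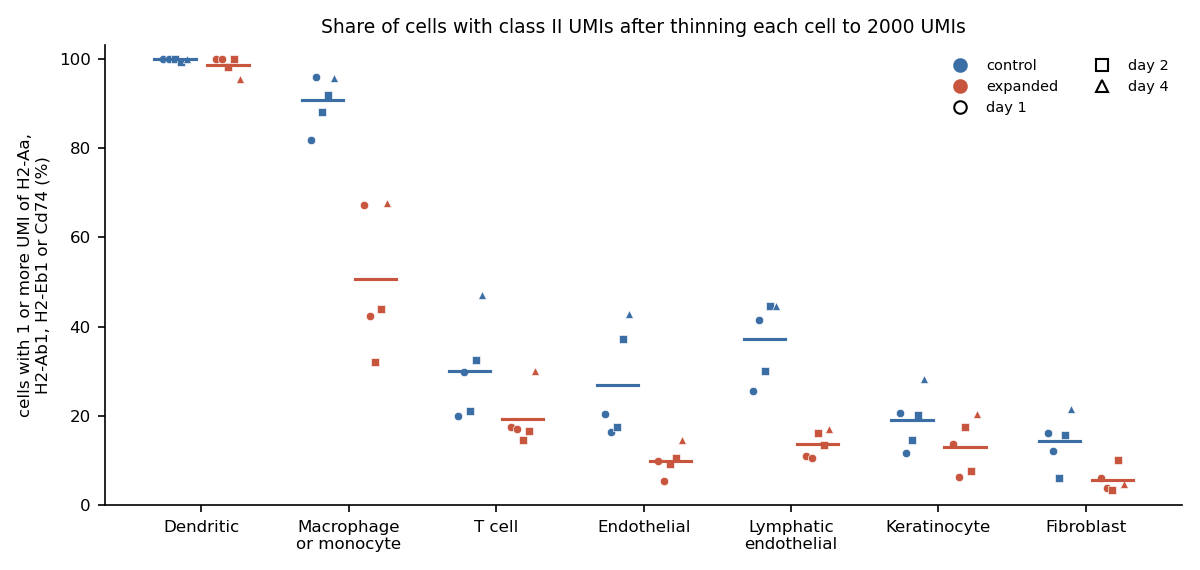
Share of cells with at least 1 UMI of H2-Aa, H2-Ab1, H2-Eb1 or Cd74 after thinning each cell to 2000 UMIs, in percent, by class and library (blue control, red expanded; short lines the arm means). In macrophage or monocyte-like cells the means are 90.8% and 50.7%, while dendritic-like cells are at 95.4% or more in every library.

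In dendritic-like cells nearly all cells stayed positive, with 99.4 to 100% in control and 95.4 to 100% in expanded libraries (exact permutation p = 0.44, n = 5 each). There the median thinned cell held 107.5 to 156 UMIs of the 4 genes in control and 83 to 142 UMIs in expanded libraries. Free RNA can place such UMIs in any droplet, and its level was not measured. All skin here had surgery, and fibroblast-like cells, which are not known for class II in resting skin, are given as a comparison. Their thinned share was 14.3% in control and 5.65% in expanded libraries on average (16.2, 12.1, 5.97, 15.7 and 21.5% against 5.99, 3.92, 3.41, 10.2 and 4.72%). All macrophage or monocyte-like shares were above all fibroblast-like shares. The fibroblast-like share moved in the same direction by 8.67 points (exact permutation p = 0.024, n = 5 each; 0.048 adjusted), and its part in the macrophage difference was not tested. The mean share was lower in expanded libraries in all 10 classes tested. It was 26.9% against 9.91% in endothelial-like and 37.2% against 13.6% in lymphatic endothelial-like cells (exact permutation, adjusted p = 0.026 each). In pericyte or smooth muscle-like cells it was 19.6% against 6.55% (exact permutation, adjusted p = 0.048). These calls were lost at 3 or more UMIs, by the same test. There endothelial-like cells were at 4.39% against 1.77% (adjusted p = 0.33) and lymphatic endothelial-like cells at 7.88% against 1.21% (adjusted p = 0.24). Pericyte or smooth muscle-like (adjusted p = 0.92) and fibroblast-like cells (adjusted p = 0.33) were not called either. Keratinocyte-like cells were higher in expanded libraries there, 2.56% against 5.18%.

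Summed over all cells, as a bulk measurement of the skin would read them, 5 of 10 members fell, against 25.2% of 17634 genes that changed and 13.3% that fell. In such sums fewer cells of a type and less RNA per cell cannot be told apart. Cd74 was at 2696, 3702, 6261, 5306 and 5665 CPM in control libraries and at 2018, 1533, 2125, 2668 and 2354 CPM in expanded libraries. Cd74 was the only member with every expanded library below every control, as for 4.43% of genes, and it fell by 1.29 (SE 0.14, adjusted p = 0.0017). H2-Aa (-1.12, adjusted p = 0.0022), H2-Ab1 (-1.10, adjusted p = 0.0019), H2-Eb1 (-1.001, adjusted p = 0.030) and H2-DMa (-0.83, adjusted p = 0.0067) also fell, and Ciita stood at -0.01 (SE 0.28) and Ctss at 0.09 (SE 0.22). The replicate block also called H2-Oa (-0.81, adjusted p = 0.039) and H2-DMb2 (-0.58, adjusted p = 0.047). The H2-Eb1 call was lost without control replicate 1, 2 or 5 or expanded replicate 2, 3 or 5. The day by arm test called 0 of 10 members and 0% of 18406 genes here, with Ctss at an unadjusted p of 0.015 (-0.53, 0.70 and 0.11 on days 1, 2 and 4).

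At the level of classes the cells that carried this RNA did not differ between the arms by test, which does not show that they were equal. Dendritic-like cells held 78.0 ± 5.48% of a control library's UMIs of the 4 genes and 78.3 ± 10.5% of an expanded library's (SD, n = 5 each; exact permutation p = 0.95). Macrophage or monocyte-like cells held 16.3 ± 3.41% and 14.98 ± 9.05% (exact permutation p = 0.79, n = 5 each). Between clusters the shares differed more: cluster 3 held 65.6% on average in control and 50.6% in expanded libraries, cluster 20 held 12.3% and 27.8%, cluster 5 held 12.2% and 2.71%, and cluster 1 held 4.04% and 12.3%. Unnamed clusters held 1.51 to 6.65% in control and 0.440 to 5.56% in expanded libraries.

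In lymphatic endothelial-like cells 4 of 5 members fell, against 10.4% of 7583 genes that changed and 5.30% that fell. Cd74 there was at 31.8, 122, 143, 223 and 140 CPM in control libraries and at 15.7, 32.5, 16.9, 65.1 and 39.1 CPM in expanded libraries, with control replicate 1 inside the expanded range. It fell by 1.99 (SE 0.33, adjusted p = 0.0019), and 2 of the 4 calls were lost without control replicate 4 or 5 or expanded replicate 5. Fibroblast-like Cd74 was at 20.6 to 64.1 CPM in control and 5.46 to 232 CPM in expanded libraries. The part of free RNA in the lymphatic endothelial-like, endothelial-like and melanocyte-like differences was not tested. In endothelial-like cells 1 of 7 members, Cd74, fell (-1.38, SE 0.38, adjusted p = 0.037), against 11.0% of genes that changed and 6.15% that fell. With the replicate block, for which no share of all genes is given, 4 members fell there (also H2-Ab1, H2-Eb1 and H2-DMa). Without the block, 0 were called when control replicate 1, 4 or 5 or any of expanded replicates 2 to 5 was left out. In melanocyte-like cells 6 of 6 members were lower, against 1.37% of 5919 genes that changed and 0.912% that fell, and 4 were without control replicate 5, whose 4-gene sum of 4146 CPM stood far above the other controls. The sum of control replicate 3 was 17.8 CPM (2 UMIs), below the 25.2 to 89.1 CPM of the 4 expanded libraries used. In these expanded libraries Cd74 rested on 1 to 17, H2-Aa on 1 to 8, H2-Ab1 on 1 to 5 and H2-Eb1 on 1 to 4 UMIs. Genes this low there pass the expression filter mainly through control libraries and could hardly come out higher. The count of 6 of 6 is therefore a description only. Replicate 1, with 6 control and 13 expanded cells of this class, was left out.

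The remaining tested classes held no called member by the edgeR test. This was so for fibroblast-like cells (27.9% of genes called), keratinocyte-like cells (10.3%), pericyte or smooth muscle-like cells (15.5%), dermal papilla-like cells (3.63%), NK or innate lymphoid-like cells (0.475%), Schwann or glial-like cells (0.355%) and T cell-like cells (0.221%). With the replicate block 5 of 6 members fell in Schwann or glial-like cells (Cd74 by 2.83, adjusted p = 0.0073), H2-Aa fell in keratinocyte-like cells (by 0.65, adjusted p = 0.045) and H2-Eb1 in NK or innate lymphoid-like cells (by 2.08, adjusted p = 0.044). The percentages above belong to the fit without the block, and no share of all genes is given for the block fit. With mice as replicates 3 of 5 members fell in fibroblast-like cells (Cd74, H2-Aa and H2-Ab1), against 27.1% of genes that changed and 13.0% that fell. In T cell-like cells 3 of 5 members fell (Ctss, H2-Aa and H2-Eb1), against 3.63% and 1.86%, in endothelial-like cells 2 of 7 (Cd74 and H2-Ab1), against 6.44% and 3.88%, and in keratinocyte-like cells 0 of 7, against 25.2%. These mouse fits leave out replicate 1, which carried no hashtags.

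H2-Eb1 varied between mice in a way that the arms did not follow. The ratio of H2-Eb1 to H2-Ab1 UMIs in the dendritic-like cells of the 28 mice fell into 3 separate ranges. It was 0.0152 to 0.0302 in 9 mice, 0.363 to 0.522 in 15 mice and 0.823 to 0.872 in 4 mice. The gap between the lower ranges was 12.0-fold and that between the upper ranges 1.58-fold. The lowest range held 5 control and 4 expanded mice, the middle range 7 and 8, and the highest 2 and 2, so each range held mice of both arms.

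The ratio in macrophage or monocyte-like cells of the same mice, where at least 100 H2-Ab1 UMIs were counted, was 0.00786 to 0.0627, 0.394 to 0.600 and 0.910 to 1.13 for the 3 ranges in turn, and these did not overlap. H2-Eb1 itself was at 149 to 338, 2744 to 6931 and 7639 to 12433 CPM in dendritic-like cells, while H2-Ab1 was at 5255 to 15682 CPM over all 28 mice. The median ratio of H2-Aa to H2-Ab1 was 0.795, 0.994 and 1.15 in the ranges, and that of Cd74 to H2-Ab1 was 2.63, 2.42 and 2.31. The ranges were read from the values and are no groups of the study, and their source was not tested. Of the 8 hashed libraries 7 held mice of more than 1 range, and expanded replicate 2 held 3 mice of the middle range.

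**Figure D5:**
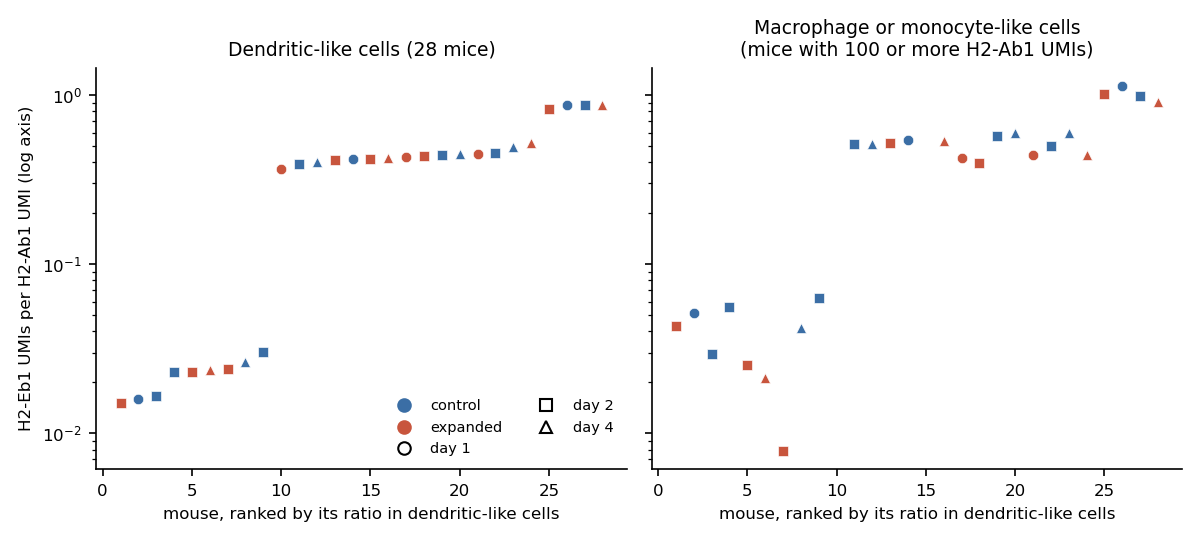
Ratio of H2-Eb1 to H2-Ab1 UMIs on a log axis for each hashtagged mouse, ranked along the x axis by its ratio in dendritic-like cells, in dendritic-like cells and in macrophage or monocyte-like cells with at least 100 H2-Ab1 UMIs (blue control, red expanded). The 28 mice lie in 3 separate bands, at 0.0152 to 0.0302, 0.363 to 0.522 and 0.823 to 0.872 in dendritic-like cells, and each band holds mice of both arms.

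The ratio was also read in single cells of each library. Single dendritic-like cells with at least 50 H2-Ab1 UMIs had a ratio under 0.1 in 45.1, 60.6 and 19.8% of cells in control replicates 3, 4 and 5 and in 20.7, 26.5 and 43.3% in expanded replicates 3, 4 and 5. In replicate 2 the share was 7.64% in control and 0 of 200 cells in expanded skin, which allows up to 1.5%. In replicate 1, without hashtags, it was 0 of 366 control cells, which allows up to 0.820%, and 0 of 135 expanded cells, which allows up to 2.22%, for counting error only. The median ratio of those cells was 0.908 in control and 0.718 in expanded replicate 1. In the dendritic-like class H2-Eb1 ranged from 3445 to 12670 CPM in control and from 2879 to 11125 CPM in expanded libraries (-0.40, SE 0.24, adjusted p = 0.26), and its SE over mice was 0.67 against 0.12 for Cd74.

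Other genes of the pathway were called about as often as all genes. Of 21 further class II pathway genes tested in dendritic-like cells, 1 rose and 3 fell, beside 19.7% of all genes that changed, with a median log2 difference of -0.03 beside 0.03 over all genes. Rfxank, a subunit of the RFX complex that binds the X box, rose by 0.93 (adjusted p = 0.026), and H2-Ob, the partner chain of H2-Oa, was at -0.75 (adjusted p = 0.049), Ctsb, a lysosomal protease, at -0.73 (adjusted p = 0.0087) and Nfya, a subunit of the factor that binds the Y box, at -0.69 (adjusted p = 0.011). In macrophage or monocyte-like cells 3 of 19 rose and 2 fell, beside 21.6% of all genes that changed, with a median of 0.06 beside 0.01. Ctsl, another lysosomal protease, rose by 1.33 (adjusted p = 0.0058), and Cst3, a cathepsin inhibitor, fell by 1.03 (adjusted p = 0.0081). In cluster 1, where 7 of 9 members fell, 0 of 19 of these genes were called.

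The interferon-gamma axis, a known inducer of Ciita, had 4 of 13 genes that fell and 1 that rose in dendritic-like cells, where 19.7% of all genes changed and 11.0% fell (median -0.36 beside 0.03 over all genes). Cxcl9, a chemokine induced by interferon-gamma, was at -2.54 (SE 0.58, adjusted p = 0.012), the guanylate-binding protein gene Gbp2 at -1.29 (adjusted p = 0.022) and the receptor gene Ifngr1 at -0.69 (adjusted p = 0.011). In macrophage or monocyte-like cells 2 of 13 fell and 0 rose, beside 21.6% of all genes that changed and 12.3% that fell (median 0.20 beside 0.01), with Cxcl9 at -3.18 (SE 0.86, adjusted p = 0.024). Cxcl9 was also lower within cluster 1 (-3.36, adjusted p = 0.043).

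Co-stimulation genes were called in macrophage or monocyte-like and in dendritic-like cells. Cd83, which stabilises class II at the cell surface, was at -1.72 (SE 0.16, adjusted p = 0.00079) in macrophage or monocyte-like cells and at -1.46 (adjusted p = 0.0051) within cluster 1. In the whole class 2 of 9 co-stimulation genes fell and 1 rose (median -0.10), beside 21.6% of all genes that changed, and the gene that rose was Tnfsf9, the ligand of 4-1BB, at 1.02 (adjusted p = 0.027). In dendritic-like cells 1 of 10 rose, Tnfsf9 at 0.90 (adjusted p = 0.017), and 0 fell (median 0.22), beside 19.7% of all genes that changed. Of 4 genes for T cell receptors and co-receptors, 3 fell in the macrophage or monocyte-like class: Cd3e at -2.90 (adjusted p = 0.042), Cd4 at -2.64 and Cd28 at -2.39 (adjusted p = 0.0033 each). The 12 T cell markers summed to 25.8 to 66.3 CPM in control and 3.72 to 18.5 CPM in expanded libraries of that class, and the part of admixed T cells in these 3 values was not tested.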

How the data were processed

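Single-cell mRNA was measured in 5 control and 5 expanded libraries. The deposited matrices hold unnormalised UMI counts, which the submitters' processing notes trace to Cell Ranger 6.1.2 and mm10, and 8 libraries also have deposited hashtag counts. The members and lists were chosen with earlier results of these data known. Filters of 200 genes, 500 UMIs and a mitochondrial share of 10% left 47251 of 55174 barcodes, and 1763 doublets called from hashtags or by Scrublet were removed, Scrublet alone in replicate 1. Any library pair shared at most 23 barcodes.

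Cells were clustered in scanpy 1.11.5 (2000 variable genes without the class II genes, 30 components, 15 neighbours, Leiden resolution 1) and named from marker lists; 8 of 40 clusters stayed unnamed. Counts were summed per class and library (at least 20 cells, 4 libraries per arm) and tested with edgeR 4.0.16 (R 4.3.3; TMM, filterByExpr, day as covariate, quasi-likelihood test, Benjamini-Hochberg adjustment over all genes), after testing on simulated data. Mice were separated with HTODemux in Seurat 5.3.0 (21140 cells) and fitted with day and round as a factor. DESeq2 1.42.0 was an alternative. Single values were compared with exact permutation tests.

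Replicate numbers pair the samples, since the labels give each pair 1 day and round. Deviations from the arm means correlated at 0.270 to 0.544 within pairs over 17634 genes. All members were named. Of the pathway lists, at most the 8 called genes with the largest absolute log2 fold change per class were named, and the 5 most similar genes by Pearson r.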

Additional observations from a re-analysis of the deposited data

Results flagged for a closer look

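In 9 of 80 groups of 5 libraries 1 library lay far from the others of its arm. For independent groups of normally distributed values chance gives about 1 in 20 such groups. The rule was applied to CPM, which is skewed in low classes, and the groups share libraries. The count of 9 is therefore no measure of an excess. H2-Oa in dendritic-like cells was at 37.4 CPM in control replicate 3 and at 15.1 to 21.2 CPM in the other controls. Ctss in macrophage or monocyte-like cells was at 2202 CPM in control replicate 5 and at 1418 to 1541 CPM in the other controls.

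The other 7 were values of the 4-gene sum (H2-Aa, H2-Ab1, H2-Eb1 and Cd74) in classes where it is low. In expanded replicate 1 it was 366 CPM in endothelial-like cells (others 77.9 to 153), 1245 CPM in NK or innate lymphoid-like cells (others 237 to 472) and 10477 CPM in T cell-like cells (others 127 to 569). NK or innate lymphoid-like cells of control replicate 1 stood at 8153 CPM (others 313 to 810). These 4 values came from the pair without hashtags. In control replicate 5 the sum was 985 CPM in keratinocyte-like cells (others 119 to 286) and 4146 CPM in melanocyte-like cells (others 17.8 to 693), and in expanded replicate 4 it was 516 CPM in fibroblast-like cells (others 10.9 to 53.4).

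For 6 members the arm difference of macrophage or monocyte-like cells differed from that of dendritic-like cells by a test of the difference: -2.09 for H2-Eb1, -1.96 for Ciita, -1.81 for H2-Aa, -1.61 for H2-Ab1, -1.38 for Cd74 and -1.26 for H2-DMb1, on the log2 scale.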

How the results depend on the processing

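Over 403 refits of 34 called member results, 350 stayed past the threshold, 53 were lost and 0 changed direction. With 1 library left out, the count of called members ranged from 1 to 4 (dendritic-like), from 6 to 7 (macrophage or monocyte-like), 3 to 8 for the difference between these classes, 0 to 4 in endothelial-like, 2 to 4 in lymphatic endothelial-like, 4 to 6 in melanocyte-like cells, 1 to 8 in cluster 1, 0 to 6 in clusters 3 and 20 and 4 to 6 in whole libraries. The cause was not tested; these fits hold fewer samples. The replicate block called 4 members in endothelial-like cells, against 1 without it, 5 against 0 in Schwann or glial-like cells and 1 against 0 in keratinocyte-like and in NK or innate lymphoid-like cells; beside these and the calls named above, the paired fit changed no member's call in the named classes, clusters 1, 3 and 20 or whole libraries. Other counts that moved, with cause not tested, were: endothelial-like 2 with DESeq2, 4 without the filter, 3 thinned and 2 without the unhashed pair; lymphatic 2 thinned; melanocyte-like 2 with DESeq2; T cell-like 4 (higher) without the filter and 2 without the unhashed pair; dendritic-like 2 when scaled by total UMIs; cluster 20, 2 with DESeq2, 5 without the filter, 1 by total UMIs and 4 without the unhashed pair; cluster 3, 5 with DESeq2, 1 thinned and 1 without the unhashed pair. Leaving out the unhashed pair and scaling by total UMIs were chosen after seeing the data.

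The difference in positive macrophage or monocyte-like cells was -24.0 points unthinned and -46.2 points at 3 or more UMIs (adjusted exact permutation p = 0.079 each), and -44.4 to -35.4 with 1 library left out. The dendritic-like share of class II UMIs differed by -0.770 points at resolution 2 and by -1.81 to 4.74 with 1 library left out (-0.784, -1.81 and -1.15 without expanded replicates 1, 2 and 3, -0.862 and -1.35 without control replicates 4 and 5). The macrophage share differed by -4.87 to 0.864 (0.864 and 0.331 without expanded replicates 1 and 2). Sums of few cells limit low genes such as H2-Oa and Ciita.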

Other observations

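H2-Eb1 and Cd74 stood in another proportion in neutrophil-like cells than in the presenting classes. The ratio of H2-Eb1 to Cd74 UMIs was 6.05 in expanded replicate 3, which gave 496 of all 795 H2-Eb1 UMIs of the class, and 0.5 to 12.5 in the other libraries, which rested on 1 to 113 H2-Eb1 UMIs each. In dendritic-like libraries it was 0.0856 to 0.370 and in macrophage or monocyte-like libraries 0.0623 to 0.361, below every neutrophil-like library. Neutrophil-like cells held 1 H2-Oa UMI in all.

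H2-Oa UMIs per 1000 Cd74 UMIs were 1.65 to 65.2 in T cell-like libraries, lowest in expanded replicate 1, which held 5453 of all 10106 Cd74 UMIs of the class. They were 0.391 to 1.05 in dendritic-like libraries, below every T cell-like library, and the T cell-like values rested on 1 to 31 H2-Oa UMIs each.

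Ctss was higher in expanded skin in the type 1 dendritic-like cells that a finer clustering separates, led by Xcr1 and Clec9a (420 cells). It was at 485, 529, 522, 736 and 724 CPM in control and at 1052, 944, 1068, 1190 and 1175 CPM in expanded libraries. The expanded values of 1190 and 1175 CPM came from libraries under the minimum of 20 cells used for the other sums. The 3 other expanded libraries held 29 to 39 cells of this type. Every expanded library was above every control, with or without the small ones. No share of all genes is given for this order, and no test was made.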
